A study of Mus musculus with 34 samples.

Results

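The genes described here encode the proteasome in macrophages sorted from the mouse colon. They are the genes whose symbol begins with Psm, followed by a letter from a to g and a digit, leaving out the interferon-inducible subunits Psmb8 and Psmb9. The rule found 45 genes among the 9851 gene symbols of 3 deposited tables. Of these, 15 encode the core particle (Psma, Psmb) and 20 the 19S cap or factors of its assembly (Psmc, Psmd), together called cap genes here. The other 10 encode the activators, an inhibitor and assembly chaperones (Psme, Psmf, Psmg). Of the 45 genes, 44 were listed in the first table, 43 in the rescue table and 44 in the neutrophil table, and 41 were in all 3. Psme2 was not among the genes of the first table, Psmd9 and Psmg1 not among those of the rescue table, and Psma4 not among those of the neutrophil table. After removal of genes with low means, 40, 38 and 39 members were tested.

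The libraries hold RNA of CD64+ CD11b+ macrophages from the colonic lamina propria of C57BL/6 mice, sorted as CD45+, CD11c intermediate, Ly6c- and CD103- cells, and the study compared mice with and without the IL-10 receptor alpha chain (Il10ra). By their titles, the first table compares CXhet (3 libraries) with IL10R (3). The rescue table has the groups CX (2 libraries), IL10R (5), IL10R_P19 (4), IL10R_abx (4) and littermate_abx (3), and both tables are of mice aged 6 to 7 weeks. The neutrophil table has the groups wt (4 libraries), ko_igg (3) and ko_ly6g (3), taken 4 weeks after mice were made bone marrow chimeras. IL10R stands for receptor-deficient macrophages, P19 was taken to mean a lack of the IL-23 subunit p19, and abx antibiotics, which both abx groups drank with their water. The ko_igg and ko_ly6g groups were read as chimeras given a control antibody and an antibody against Ly6G, which depletes neutrophils, although the treatment label names the Ly6G antibody for all 10 libraries of that table, wt included. The labels do not name the Cre driver. In the published work on this mouse model it is expressed from Cx3cr1, so other Cx3cr1-expressing cells lose the receptor too. The genotype behind littermate_abx is not stated. In the rescue table the titles of all IL10R, IL10R_P19 and IL10R_abx libraries also carry the tag 5C5. The CX and littermate_abx titles do not, and what the tag means is not stated. CXhet and CX were taken as the controls of their tables, and they may differ in genotype.

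The proteasome degrades proteins tagged with ubiquitin. Its core is a barrel of alpha and beta rings, and 3 beta subunits, encoded by Psmb5, Psmb6 and Psmb7, carry the chymotrypsin-like, caspase-like and trypsin-like activities. The 19S cap recognises ubiquitin, removes it, and unfolds the substrate with a ring of ATPases, whereas PA28 and PA200 are caps that work without ubiquitin. In cells exposed to interferon gamma the 3 active beta subunits are exchanged for inducible ones, encoded by Psmb8, Psmb9 and Psmb10, and PA28 alpha and beta (Psme1, Psme2) are made in larger amounts, which favours the making of peptides for MHC class I.

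The rule therefore takes in more than constitutive subunits. Psmb10 encodes the inducible trypsin-like subunit that takes the place of Psmb7, and Psme1, Psme2 and Psme2b encode PA28 chains. These 4 genes are given apart from the other members below. Psme2b is nearly the same sequence as Psme2: in the GENCODE M21 transcripts the longest alignment of Psme2b with a Psme2 transcript covered 794 bases, 789 of them identical (99.4%). Reads of one can be counted for the other, so the values listed under Psme2b are uncertain as to gene. Levels of different genes are not compared here, since the values were not corrected for length.

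The promoters of 4 members are shown. Psmb10 and Psme1 were higher in receptor-deficient macrophages of the first table, and Psmb5 fell with antibiotics. Psmb6, another active subunit, passed the test in none of the comparisons below. Each sequence is the 250 bases before the transcription start in the RefSeq promoter table, build GRCm38.p6, read 5′ to 3′ in the direction of the gene, and capitals mark the letters TGACNNNGC, the antioxidant response element bound by the factors Nrf1 and Nrf2.
Psmb10, chr8:105938393-105938642, minus strand: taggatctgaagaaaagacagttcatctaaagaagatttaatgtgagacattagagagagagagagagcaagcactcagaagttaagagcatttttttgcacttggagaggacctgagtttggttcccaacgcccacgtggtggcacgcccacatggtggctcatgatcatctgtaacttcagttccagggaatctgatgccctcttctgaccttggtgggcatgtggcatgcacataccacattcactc
Psme1, chr14:55578244-55578493, plus strand: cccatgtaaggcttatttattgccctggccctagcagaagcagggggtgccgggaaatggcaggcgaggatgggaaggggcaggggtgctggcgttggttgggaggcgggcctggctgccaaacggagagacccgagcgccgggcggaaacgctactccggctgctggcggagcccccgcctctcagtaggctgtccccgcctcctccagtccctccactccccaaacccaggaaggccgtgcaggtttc
Psmb5, chr14:54617996-54618245, minus strand: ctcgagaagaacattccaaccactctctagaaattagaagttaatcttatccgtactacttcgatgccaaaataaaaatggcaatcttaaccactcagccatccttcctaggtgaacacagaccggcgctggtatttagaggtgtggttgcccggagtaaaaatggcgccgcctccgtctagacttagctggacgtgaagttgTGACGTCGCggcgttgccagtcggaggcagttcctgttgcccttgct
Psmb6, chr11:70525107-70525356, plus strand: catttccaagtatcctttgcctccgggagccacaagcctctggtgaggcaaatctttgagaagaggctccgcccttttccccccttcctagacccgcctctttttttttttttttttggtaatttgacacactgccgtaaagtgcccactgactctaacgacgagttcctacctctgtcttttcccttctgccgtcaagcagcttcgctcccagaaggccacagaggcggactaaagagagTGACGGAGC

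The element lay 47 to 39 bases before the start of Psmb5 and 9 to 1 bases before that of Psmb6. Of the 45 members, 38 were in the promoter table, and 5 of these held the element in the window on either strand (Psmb5, Psmb6, Psmc6, Psmd9 and Psmd12), against 10.2% of all 32851 promoters. The interferon-stimulated response element (GAAA, any 2 bases, GAAA) was found for 3 members (Psmb3, Psmd4 and Psmd9), against 2.98% of all promoters, and the gamma-activated sequence TTCNNNGAA for 1 (Psmg1), against 7.02%. Neither was in the windows of Psmb10 and Psme1. The NF-kB letters (GGGA, any base, TT, any base, CC) were in no member's window and in 0.98% of all. CCAAT was in the windows of 12 members (33.8% of all promoters) and GGGCGG in those of 21 (32.7%), and no 2 of the 6 motifs overlapped in the 4 promoters printed. A match is only a run of letters, and binding was not measured.

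The deposited values, here called normalized values, are read numbers of each gene over a factor set for the library, and the 3 tables were normalized separately. Total reads ranged from 1458726 to 2487074 in the first table, from 747046 to 2775974 in the rescue table, and from 1028567 to 4525047 in the 8 neutrophil-table libraries where they could be recovered. Il10ra was lower in every deficient library than in every control library of its table, but the library labelled IL10R 2 of the first table, at 361, lay close to the CXhet range of 371 to 689. The macrophage markers were present in every group (10 of 12 listed), and epithelial markers too (15 of 15). Whether the libraries of a group were made from different mice is not stated, so the p-values below reflect only how far these libraries differ, which may be technical. In sorted bulk cells, fewer cells of a type and less RNA per cell cannot be told apart.

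In some libraries the proteasome genes stood apart from those of their groups. In IL10R 2 of the first table Psma6 lay 1.20 above the other IL10R libraries on the log2 scale and Psme4 1.16 below them. In IL10R_P19_100 of the rescue table the members lay above the other IL10R_P19 libraries by a median of 0.33 on the log2 scale. In the neutrophil table, 1 library of each group (wt 1, ko_igg 18 and ko_ly6g 5) was low in some core genes and not in others. Psmb7 was 65.5 in wt 1 against 132 to 143 in the other wt libraries, 49.0 in ko_igg 18 against 187 and 228, and 35.2 in ko_ly6g 5 against 187 and 219.7. Psma2 had the same pattern, at 68.5, 117 and 51.3 in these 3 libraries against 212 to 416 in the others. Results of the neutrophil table are given with and without these 3 libraries, a choice made after seeing the data.

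The summed values of each class, as a share of all listed values, show the main contrasts of the study. In the first table the core genes made up 0.184%, 0.191% and 0.210% in the CXhet libraries and 0.235%, 0.299% and 0.282% in IL10R. The 19S genes took 0.158% to 0.177% in CXhet and 0.183% to 0.217% in IL10R, and the activator class 0.0824% to 0.0883% and 0.140% to 0.187%. The groups did not overlap in any class, but Psmb10, Psme1 and Psme2b are included. Without Psmb10, the core share of IL10R 1 lay below that of CXhet 3. Without Psme1 and Psme2b, the activator share of IL10R 1 lay below that of CXhet 1. With these inducible genes set aside, all other members together took 0.3341% to 0.3799% in CXhet and 0.3819% to 0.4765% in IL10R. In the rescue table, core genes took 0.212% and 0.206% in CX and 0.252% to 0.325% in IL10R, and their share was lowest with antibiotics, at 0.152% to 0.208% in IL10R_abx and 0.140% to 0.158% in littermate_abx. In IL10R_P19 it was 0.212% to 0.236% in 3 libraries and 0.296% in the library numbered 100. Among the chimeras, wt 1 had 0.175% and the other wt libraries had 0.248% to 0.254%, below 0.299% to 0.334% in ko_igg and 0.298% to 0.350% in ko_ly6g. Every deficient library lay above every wt library there in core share, which includes Psmb10. Without Psmb10, the core shares of deficient and wt libraries overlapped. Members other than the inducible genes together took 0.327% to 0.4673% in wt. They took 0.5179% to 0.6197% in ko_igg and 0.5302% to 0.6076% in ko_ly6g, without overlap with wt.

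**Figure D1:**
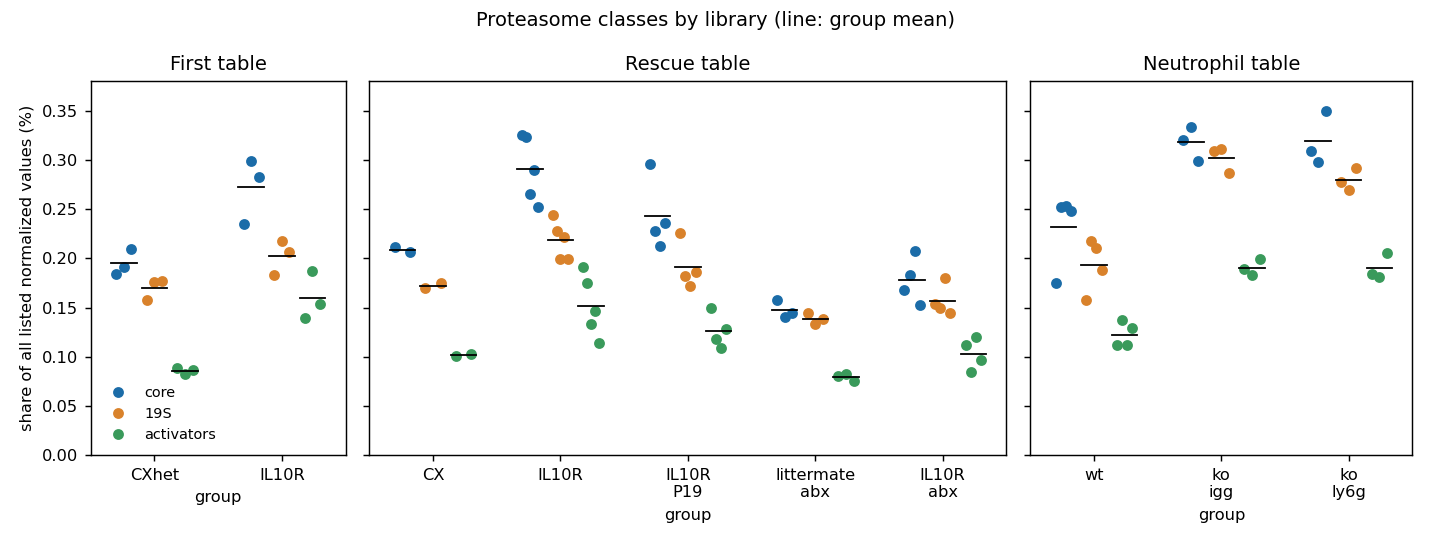
Summed normalized values of the core, 19S and activator classes in percent of all listed values (y axis) for each library (points) by group (x axis), with the group mean as a line, for the 3 tables. In the first and neutrophil tables the deficient groups lie above the control group in every class, with the inducible members included. In the rescue table the core share is highest in IL10R (0.252% to 0.325%) and lowest in littermate_abx (0.140% to 0.158%).

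The first comparison asked how proteasome genes differed between IL10R and CXhet macrophages. The inducible members stood out: Psmb10, Psme1 and Psme2b were more than doubled, while the constitutive core and cap genes were mostly higher by smaller amounts that did not pass the test. Of the 40 tested members 3 were called higher and 0 lower, against 4.57% and 4.12% of all 6766 tested genes (limma, adjusted p under 0.05 over all tested genes). All 3 are inducible genes, and 0 of the 37 others were called. Yet 36 of 40 changes were above 0, with a median of 0.52 on the log2 scale in the core, 0.36 in the 19S cap and 0.39 in the activator class, beside 0.00 over all tested genes. Without IL10R 2 the medians were 0.32 in the core and 0.22 in the 19S cap.

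The Psmb10 values were 937, 628 and 752 for CXhet against 1607, 1933 and 1886 for IL10R. The groups were well apart, with means of 772 ± 155 and 1809 ± 176 (SD, n = 3 each), and the log2 change was 1.24 (SE 0.22, limma adjusted p = 0.0105). All log2 changes are of the value plus a small pseudocount, which understates changes of low genes. Psme1, the PA28 alpha chain, measured 929.8, 813 and 885 in CXhet and 1654, 2918 and 1906 in IL10R, a change of 1.26 (SE 0.25, adjusted p = 0.017). Psme2b was 537, 439 and 496.2 against 1078, 1325 and 1019, a change of 1.21 (SE 0.19, adjusted p = 0.00794). For both genes every IL10R library exceeded every CXhet library. The left-out subunits moved with them: Psmb8 was higher by 1.78 (SE 0.28, adjusted p = 0.00708) and Psmb9 by 2.08 (SE 0.31, adjusted p = 0.00597).

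Among the constitutive catalytic subunits, Psmb7 was 103, 172 and 131 in CXhet and 163, 284 and 191 in IL10R. These ranges overlapped (change 0.64, SE 0.27, limma adjusted p = 0.172). Psmb6 was 567.5, 638.5 and 618.5 against 702, 1040 and 799, without overlap, but its change of 0.46 (SE 0.20) did not pass either (adjusted p = 0.194). Psmb5 was 54.7, 46.6 and 52.8 against 50.3, 75.1 and 63.6, a difference within the spread between libraries (adjusted p = 0.521). Changes of the alpha ring genes tested ran from 0.39 to 0.79, and those of the ATPases Psmc1 to Psmc6 from 0.18 to 0.53.

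Among the other cap genes, the scaffold Psmd2 was 152, 179.9 and 179 in CXhet and 194, 363 and 213 in IL10R, and the ubiquitin receptor Psmd4 was 327, 284 and 349 against 422, 586 and 395. Both were without overlap, with changes of 0.53 (SE 0.25, limma adjusted p = 0.211) and 0.53 (SE 0.20, adjusted p = 0.145). The scaffold Psmd1 (change 0.26, SE 0.18) and the deubiquitinase Psmd14 (0.18, SE 0.18) overlapped between groups. Of the 20 cap genes 3 had negative changes, Psmd5, Psmd6 and Psmd11, with -0.40 for Psmd11 as the lowest. PA200 (Psme4) had the lowest change of all members, with 142, 82.95 and 94.5 in CXhet and 80.7, 38.9 and 96.5 in IL10R (change -0.61, SE 0.35, adjusted p = 0.307). The nuclear PA28 gamma chain Psme3 (0.38, SE 0.23), which is not interferon-inducible, and the inhibitor PI31, encoded by Psmf1 (0.36, SE 0.23), overlapped between groups.

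Of the members not tested for low means, the assembly chaperone Psmg2 was 63.2, 54.1 and 43.1 in CXhet and 48.9, 53.1 and 41.2 in IL10R, and Psmg1 was 46.2, 41.9 and 68.1 against 26.5, 41.5 and 30.6. Both means were lower in IL10R, and no test was made. Markers of other cells moved in this table too. The 15 epithelial markers summed to 0.679% to 1.36% of listed values in CXhet and 0.45% to 0.767% in IL10R. The 6 of 10 neutrophil markers listed summed to 0.00591% to 0.00946% and 0.0203% to 0.0291%, with 1 of them at 0 in all CXhet libraries, and the 3 of 7 monocyte markers listed to 0.0156% to 0.023% and 0.0362% to 0.145%. Their part in the result was not tested. All 3 calls were lost without the library CXhet 2 (2.02% of all genes called higher), with limma adjusted p-values up to 0.0939. Without IL10R 2 the count was 3 (3.58% of all genes higher). Psme1 also missed the threshold without CXhet 3 or IL10R 3.

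A similar contrast in the rescue table, IL10R against CX, where the control has another name, gave smaller changes. Of the 38 tested members 3 were called higher and 0 lower, against 3.87% and 6.03% of all 6612 tested genes, and 36 changes were above 0. The called genes were Psmb10, Psme2b and Psmb4, a structural subunit of the beta ring. The median change was 0.25 in the core, 0.27 in the 19S cap and 0.19 in the activator class, beside 0.01 over all tested genes.

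For Psmb4 the CX values were 300.3 and 435, and the IL10R values were 679, 742.5, 646.5, 626 and 684. The 2 CX libraries differed between themselves, yet both lay below all 5 IL10R libraries, and the change was 0.90 (SE 0.21, limma adjusted p = 0.0121). Psmb10 was 336 and 301 in CX and 809, 726, 429, 562 and 426 in IL10R (change 0.84, SE 0.24, adjusted p = 0.0324). Psme2b was 492.9 and 499.9 against 1319, 1120, 747, 876 and 599 (change 0.85, SE 0.23, adjusted p = 0.0239). For both, the IL10R libraries numbered 27 and 32 were the highest and 61 and 68 the lowest of the deficient group. Psme1, at 497.1 and 528 against 793, 726, 548, 626.5 and 485, overlapped with CX (change 0.29, SE 0.21, adjusted p = 0.398), and so did its partner Psme2, at 18.6 and 14.2 against 45.5, 42.5, 19.9, 16.7 and 13.7, which was below the filter and was not tested.

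The constitutive catalytic subunits differed little here. Psmb5 was 185 and 174 in CX and 196, 226, 165, 169 and 167 in IL10R, a change of 0.03 (SE 0.24, limma adjusted p = 0.958). Psmb6 was 348 and 243 against 424, 347, 315, 342.5 and 317, with overlap, and Psmb7 was 75.6 and 81.4 against 97.5, 97.5, 91.9, 95.7 and 82.9, without overlap (change 0.24, SE 0.16, adjusted p = 0.36). Psmd1 was 175 and 176 against 304, 235, 184, 251 and 199 (change 0.39, SE 0.17, adjusted p = 0.149), and Psmd14 was 115 and 117 against 159, 157, 124, 147 and 122 (change 0.28, SE 0.22). Psmd4 was level between the groups (change 0.01, SE 0.15).

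With only 2 CX libraries these calls are fragile. Without CX 1 the count of calls was 0, with 0.0605% of all genes called higher. Without CX 3 or IL10R 32 it was 1 (0.711% and 2.12% of all genes higher), and in a fit of the 2 groups alone it was 2. For that fit no share of all genes is given. The activator median was 0.0093 without CX 3 and 0.32 without CX 1. The macrophage markers summed to 1.93% and 1.94% in CX and 0.835% to 1.14% in IL10R, and 5 neutrophil markers to 0.005% to 0.00793% and 0.00681% to 0.0908%. Their part was not tested.

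**Figure D2:**
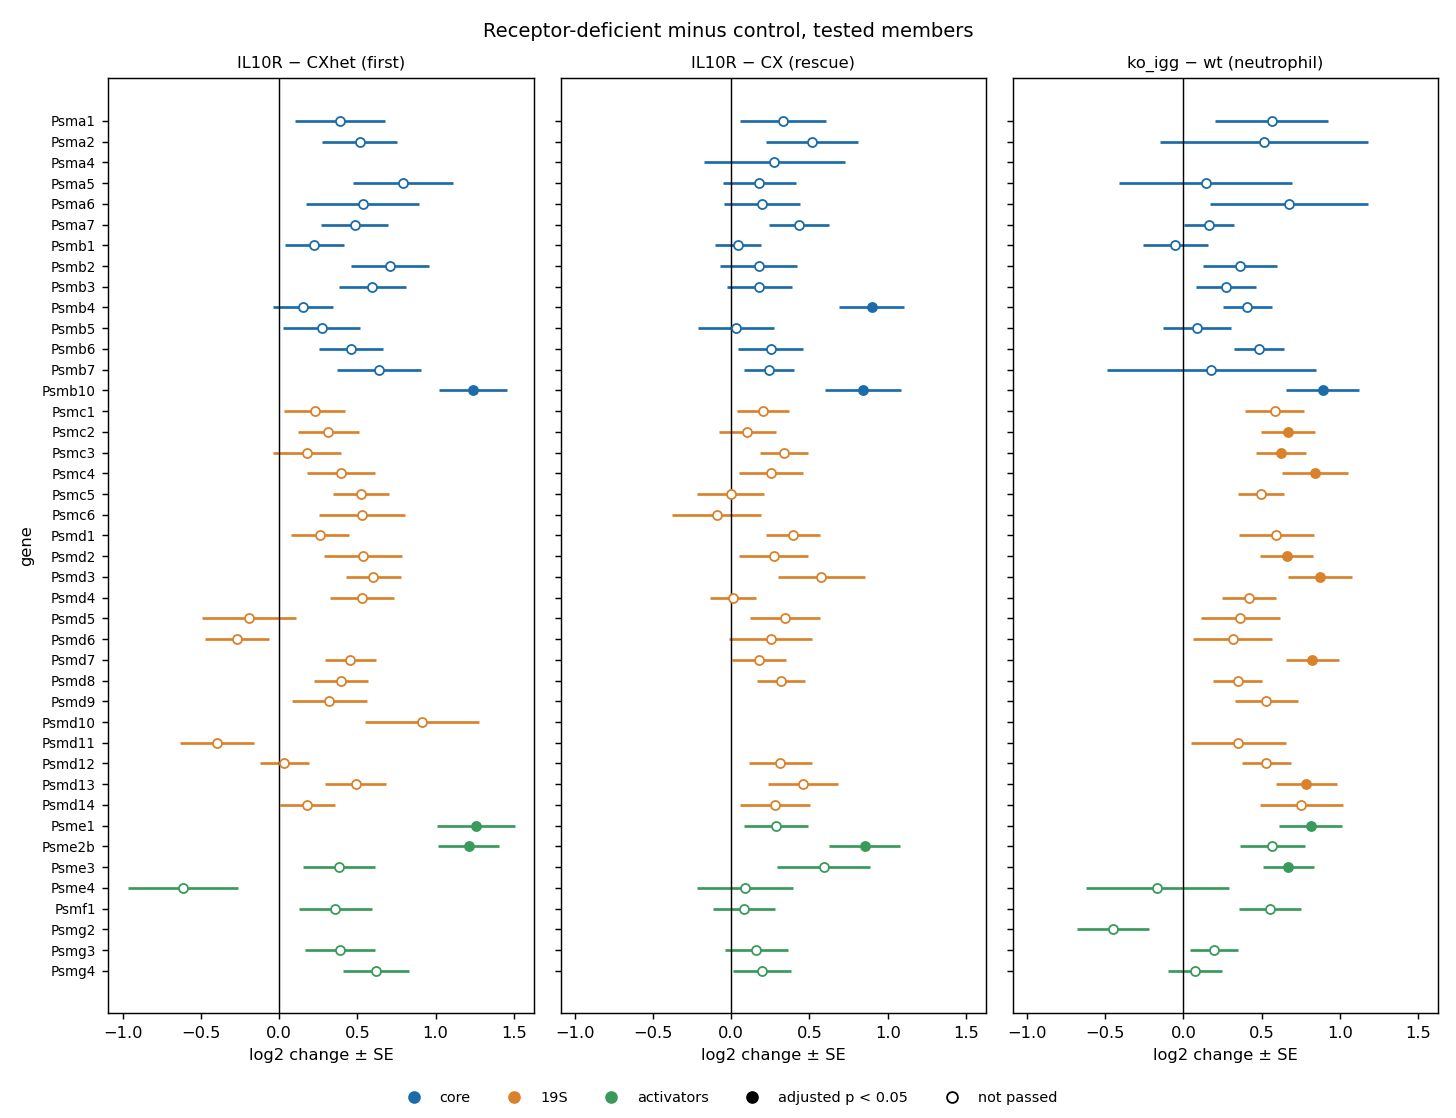
Log2 change with its SE (x axis) of each tested member (y axis, in the order alpha ring, beta ring, 19S ATPases, other 19S genes, activators) in receptor-deficient against control macrophages of the first, rescue and neutrophil table. Filled points passed the test: Psmb10, Psme1 and Psme2b in the first table, Psmb4, Psmb10 and Psme2b in the rescue table, and 10 genes in the neutrophil table, 7 of them in the 19S cap.

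In the bone marrow chimeras genes of all 3 classes were called higher in the deficient macrophages. Of the 39 tested members 10 were called higher in ko_igg than in wt and 0 lower, against 5.73% and 3.46% of all 6594 tested genes, and 36 changes were above 0. The 10 were 7 of the 18 cap genes, the core gene Psmb10, and the activators Psme1 and Psme3. The median change was 0.59 in the 19S cap, 0.36 in the core and 0.37 in the activator class, beside 0.06 over all tested genes. The core median was 0.22 without ko_igg 16.

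Psmd7, a lid subunit that holds the deubiquitinase Psmd14 in place, was 235, 284, 291 and 248.5 in the wt libraries and 478, 562 and 381 in ko_igg. The lowest deficient library lay well above the highest wt library (change 0.83, SE 0.17, limma adjusted p = 0.0137). The lid subunit Psmd3 was 417, 270.4, 277 and 245 against 499.9, 486 and 658 (change 0.87, SE 0.20, adjusted p = 0.0252), and Psmd13, another lid subunit, was 479, 441, 491.5 and 336 against 699, 621 and 951 (change 0.78, SE 0.19, adjusted p = 0.0318). In both genes wt 1 or wt 3 was the highest control library and the groups did not overlap.

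The ATPase Psmc4 was 214, 303, 353 and 212 in wt and 477, 466.1 and 480.4 in ko_igg (change 0.84, SE 0.21, limma adjusted p = 0.0318). Psmc2 and Psmc3, which sit in the same ring, changed by 0.67 and 0.62 (adjusted p = 0.0359 for each), and Psmc6 was below the filter. Psmd2, at 194, 237, 240.5 and 198 against 358, 336 and 334, changed by 0.66 (SE 0.17, adjusted p = 0.0355). Psmd14 was 122 in wt 1, 258 to 269 in the other wt libraries and 393, 380.4 and 332 in ko_igg, without overlap, but did not pass (change 0.75, SE 0.26, adjusted p = 0.0973). Psmd1 (0.60, SE 0.24) and Psmd4 (0.42, SE 0.17) did not pass either.

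Psmb10 was 1164, 1052, 1108 and 1233 in wt and 1706, 1784 and 3081 in ko_igg (change 0.89, SE 0.23, limma adjusted p = 0.0393), the highest value being that of ko_igg 18. Psme1 was 1333, 1396, 1081 and 1125 against 1955, 1816 and 2825 (change 0.81, SE 0.20, adjusted p = 0.0318). Psme3, the nuclear PA28 gamma chain, was 158, 225.5, 185 and 182 against 322, 299 and 273 (change 0.67, SE 0.16, adjusted p = 0.0303). None of the 3 genes overlapped between the groups.

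The constitutive catalytic subunits did not pass. Psmb5 was 173, 219, 218.5 and 177 in wt and 228, 170.5 and 231 in ko_igg, an overlap in both directions (change 0.09, SE 0.22). Psmb6 was 685, 901, 912.5 and 754 against 1098, 1111 and 1177, without overlap (change 0.48, SE 0.16, limma adjusted p = 0.0849), and Psmb7 had the split within groups given above (change 0.18, SE 0.67). Psme4 was 119, 49.5, 52.6 and 78.6 against 62.1, 31.0 and 126, with its highest values in the libraries wt 1 and ko_igg 18. Psmg2 was the lowest member, at 107.2, 107.2, 94.3 and 96.5 against 88.7, 90.2 and 50.1 (change -0.45, SE 0.23, adjusted p = 0.235), and no wt library was as low as any ko_igg library.

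The chimeras given the Ly6G antibody gave values near those of ko_igg. In ko_ly6g against wt, which shares the wt libraries with the comparison before, 2 of 39 members were called higher and 0 lower, against 2.99% and 1.35% of all tested genes. They were Psmb10, at 2743, 1887 and 2105 in ko_ly6g (change 0.96, SE 0.23, limma adjusted p = 0.0467), and Psmd3, at 498, 521 and 574 (change 0.84, SE 0.20, adjusted p = 0.047). Changes above 0 numbered 36. The median change was 0.23 in the core, 0.53 in the 19S cap and 0.41 in the activator class, beside 0.06 over all tested genes. At an unadjusted limma p under 0.05 there were 20 members higher and 1 lower, a count for which no share of all genes is given. Psme1, at 2305, 2008 and 1890, changed by 0.75 (SE 0.20, adjusted p = 0.063).

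Between ko_ly6g and ko_igg no member was called by limma, edgeR or DESeq2, the count at an unadjusted p under 0.05 was 0 in each, and 0% of all tested genes were called higher and 0% lower. Member changes ran from -0.81 for Psma6 to 0.63 for Psme4, with a median of -0.04. Psma6 was 127, 217 and 54.7 in ko_igg and 61.5, 98.3 and 45.8 in ko_ly6g, and Psme4, with the ko_igg values above, was 116, 67.6 and 119 in ko_ly6g. Both genes varied within the groups by more than between them. For Psmd14 the change was 0.00 (SE 0.28).

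The number of calls in the chimeras depends on which libraries enter. For ko_igg against wt it was 20 without wt 1, ko_igg 18 and ko_ly6g 5 together, where 16.7% of all genes were called higher and 14.3% lower. Leaving out single libraries gave 13 without wt 1 (9.34% of all genes higher), 4 without wt 2 (4.69%) and 3 without wt 3 (3.35%). It gave 2 without ko_igg 18 (3.81%), 1 without wt 4 (3.28%), and 0 without ko_igg 14 or 16 (1.9% and 2.18%). For ko_ly6g against wt the number of calls was 17 without the 3 libraries (10.6% of all genes higher and 8.69% lower). There it was 3 without wt 1 (4.84% higher) and 0 without any other single library (1.08% to 2.23% higher). On recovered reads, where wt 3 and ko_igg 16 could not be used, edgeR called 0 members in both comparisons (14 and 16 at an unadjusted p under 0.05) and DESeq2 called 7 and 4. The shares of all genes called by these tools are not given here, so these counts have no background beside them. The 15 epithelial markers summed to 0.998% to 2.31% in wt, 1.77% to 2.13% in ko_igg and 1.64% to 2.41% in ko_ly6g. The macrophage markers summed to 1.08% to 3.06%, 0.855% to 1.12% and 0.516% to 1.26%. In the same order of groups, the 6 of 10 neutrophil markers listed summed to 0.00464% to 0.00914%, 0.0096% to 0.0404% and 0.00676% to 0.0516%, and the 3 of 8 dendritic cell markers to 0.00909% to 0.0212%, 0.00386% to 0.00774% and 0.00519% to 0.0108%. The part of these in the result was not tested.

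The IL10R_P19 group asked whether the IL-23 subunit bears on the deficient state. All 14 tested core genes and 15 of 17 cap genes had lower means on the log2 scale in IL10R_P19 than in IL10R, but by little. No member was called by limma, edgeR or DESeq2 (4, 4 and 5 at an unadjusted p under 0.05), against 1.92% of all tested genes called higher and 0.514% lower. The median change was -0.20 in the core, -0.15 in the 19S cap and -0.29 in the activator class, beside 0.00 over all tested genes. Without IL10R_P19_100 the core median was -0.32, and without IL10R 27 the 19S median was -0.075.

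Psmb10 was 489.6, 390.1, 347 and 416 in the IL10R_P19 libraries, inside the lower part of the IL10R range of 426 to 809 and below it (change -0.48, SE 0.19, limma adjusted p = 0.209). Psme2b was 812, 651, 561 and 667 (change -0.43, SE 0.18, adjusted p = 0.242), and the lowest change was that of Psmd3, at 236, 181, 201.2 and 211 against 239 to 428 (-0.56). Psme1, at 749, 559.5, 567.7 and 688, was level with IL10R (change 0.02, SE 0.16). The library IL10R_P19_100 was the highest of the group in Psmb5 (219 against 143 to 147) and in 2 genes of the activator class given in the closing section.

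Against CX, whose libraries also serve the comparison of IL10R with CX, no member was called by limma, edgeR or DESeq2 (2, 1 and 2 at an unadjusted p under 0.05), with 0.0151% of all tested genes called higher and 0.0151% lower. Psmb10 (change 0.36, SE 0.25), Psme1 (0.31, SE 0.21) and Psme2b (0.43, SE 0.24) were above both CX libraries in each of the 4 IL10R_P19 libraries. The medians were 0.10 in the core, 0.13 in the 19S cap and -0.02 in the activator class, beside 0.01 over all tested genes. Single libraries decided them: without IL10R_P19_100 the core and 19S medians were 0.0067 and 0.039, without CX 3 the core median was 0.012, and the activator median was -0.12 without CX 3 and 0.092 without CX 1. Between these groups so few genes of the whole table were called that the absence of calls among members says little.

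The largest changes of proteasome genes in the rescue table lay between IL10R_abx and IL10R, and most were lower in the treated group. In IL10R_abx against IL10R, 16 of 38 tested members were called lower and 1 higher, against 27.3% of all tested genes called lower and 30.6% higher. The lower calls were 9 of 14 core genes, 4 of 17 cap genes and 3 of 7 genes of the activator class, with medians of -0.46, -0.24 and -0.24 beside 0.03 over all tested genes. With so many genes called in both directions, a call by itself sets a member little apart, and 17 of 38 members called is a smaller share than that of all genes. The activator median was -0.38 without IL10R 67.

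Psmb5, the chymotrypsin-like subunit, was 196, 226, 165, 169 and 167 in IL10R and 56.6, 65.8, 103 and 109.5 in IL10R_abx. The highest treated library lay well below the lowest untreated one, and the change of -1.17 (SE 0.19, limma adjusted p = 3.67e-05) was the largest fall of any member. The structural ring subunit Psmb2 was 105.3, 78.8, 77.5, 82.8 and 67.6 against 26.1, 50.8, 39 and 53.8 (change -0.98, SE 0.20, adjusted p = 2.83e-04), and Psmb4, at 381, 365, 479.8 and 303, fell by 0.84 (SE 0.17, adjusted p = 2.58e-04). Psmb3 was 83.2, 77.8, 60.3, 91.9 and 74 against 45.7, 43.3, 47.5 and 47.1 (change -0.73, SE 0.17, adjusted p = 9.29e-04). In all 4 genes the groups were apart.

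The other active subunits fell less or did not pass. Psmb7, at 60.9, 65.8, 84.8 and 71.1 in IL10R_abx, overlapped with IL10R (change -0.40, SE 0.13, limma adjusted p = 0.0117). Psmb6, whose promoter held the same element as that of Psmb5, was 348, 295, 288 and 213 (change -0.30, SE 0.17, adjusted p = 0.135). Psmb10, at 516, 566, 441 and 323, did not pass (change -0.34, SE 0.19, adjusted p = 0.149). Among alpha ring genes Psma1, Psma4 and Psma7 were called, with Psma4 split within the treated group: 39.2 and 26.3 in IL10R_abx_160 and IL10R_abx_161 against 124 and 110.5 in IL10R_abx_495 and IL10R_abx_497.

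In the cap, the lid subunit Psmd13 was 282, 280, 208, 226 and 265 in IL10R and 155, 88.4, 166 and 144 in IL10R_abx, apart from each other (change -0.89, SE 0.18, limma adjusted p = 2.93e-04). Psmd3, at 187, 92.2, 231 and 232 in IL10R_abx, fell by 0.80 (SE 0.22, adjusted p = 0.00481), and Psmd7 and Psmc4 were the other cap genes called. Psmd1 (-0.24, SE 0.14), Psmd2 (-0.31, SE 0.18), Psmd4 (-0.13, SE 0.12) and Psmd14 (-0.22, SE 0.18) did not pass. Of the activator class, PA200 (Psme4) fell by 0.70 (SE 0.25, adjusted p = 0.0216) with the lowest value, 31.97, in IL10R_abx_161 and 76.2, 108.5 and 103 in the others. Psme2b and the assembly chaperone Psmg3 fell too, whereas Psmg4, the partner of Psmg3 in a chaperone pair, was the single member called higher: 79.3, 69.5, 57.6, 79.7 and 68.4 in IL10R against 126, 80.9, 100 and 85.5 in IL10R_abx, just without overlap (change 0.45, SE 0.15, adjusted p = 0.0141). Psmg4 was no longer called without IL10R_abx_160.

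The littermates given antibiotics and the untreated CX mice, a comparison that shares no library with the one before, also differed downward. Of 38 members 5 were called lower and 0 higher, against 17.5% and 16.5% of all tested genes. The share called lower was near that of all genes, and the share called in both directions together was smaller than that of all genes. Psmb5 was 185 and 174 in CX and 94, 67.7 and 100.1 in littermate_abx, without overlap (change -1.05, SE 0.26, limma adjusted p = 0.00467). Psmb1 was 721 and 621 against 449, 446 and 455 (change -0.57, SE 0.16, adjusted p = 0.0107), and Psma5 was 125 and 104 against 77.4, 56.9 and 61.1 (change -0.81, SE 0.25, adjusted p = 0.0185). Psmg3 and Psmc4 were the others. All 14 core changes were below 0, with medians of -0.27 in the core, -0.18 in the 19S cap and -0.30 in the activator class beside 0.04 over all tested genes. The core median was -0.40 without CX 3. Psmb10, at 282, 294 and 251, lay just below both CX libraries (change -0.21, SE 0.26, adjusted p = 0.583), and so did Psme1.

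**Figure D3:**
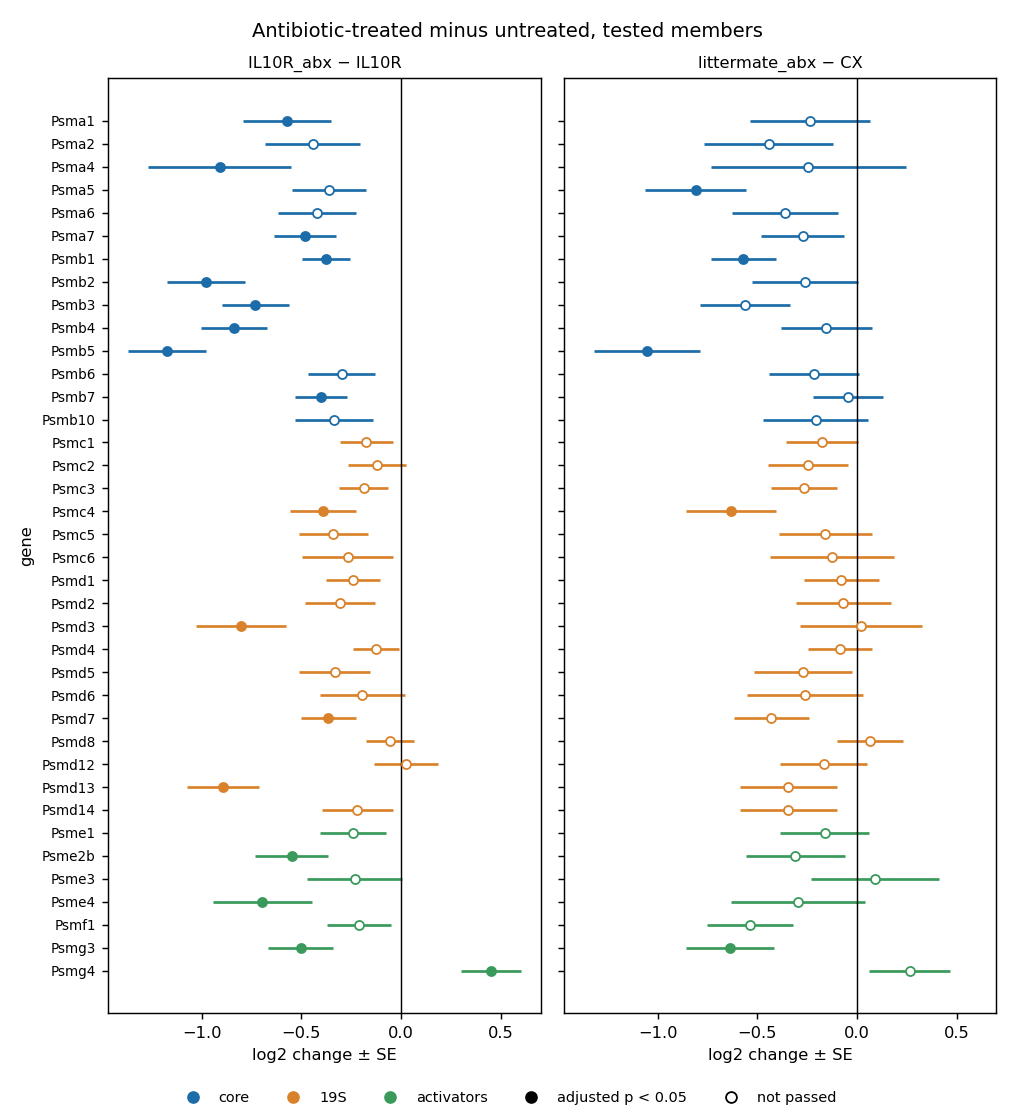
Log2 change with its SE (x axis) of each tested member (y axis) with antibiotics, in receptor-deficient mice (IL10R_abx against IL10R) and in littermates against CX. Filled points passed the test: 17 genes on the left, all but Psmg4 lower, and 5 on the right, with Psmb5 the lowest in both at -1.17 and -1.05.

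The treated and untreated libraries differed in other ways that go with these falls. The 15 epithelial markers summed to 0.29% to 0.49% of listed values in IL10R_abx and 0.268% to 0.41% in littermate_abx, against 1.59% to 1.94% in IL10R and 1.45% to 1.64% in CX. The macrophage markers summed to 2.2% to 2.96% and 2.61% to 2.91%, against 0.835% to 1.14% and 1.93% to 1.94%. The 3 of 7 monocyte markers listed summed to 0.0108% to 0.0407% in IL10R_abx and 0.018% to 0.0243% in littermate_abx, against 0.0569% to 0.13% in IL10R and 0.0562% to 0.064% in CX. The 3 of 8 dendritic cell markers were higher with antibiotics, at 0.0256% to 0.031% and 0.0217% to 0.0275%, against 0.00774% to 0.0107% and 0.014% to 0.015%. Their part was not tested. Scaling moved the count as well. With each library scaled to the sum of its listed genes, the median of all genes moved from 0.03 to -0.18, the members called in IL10R_abx against IL10R were 31 lower and 0 higher, and those of all genes 36.6% lower and 23% higher. Relative to the median of all genes, the member median was -0.38 before and -0.37 after this scaling. For littermate_abx against CX the same scaling gave 8 lower calls, with 21.8% of all genes lower and 11.7% higher. Unscaled, the count was 1 without CX 1 (11.6% of all genes lower). It was 3 without either littermate_abx_491 or littermate_abx_496 (16.6% and 14.9% of all genes lower).

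IL10R_abx was also set against IL10R_P19. Of 38 members 7 were called lower and 1 higher, against 22.4% and 25.8% of all tested genes. Psmb5 (change -0.98, SE 0.20, limma adjusted p = 5.77e-04), Psmb2 (-0.95, SE 0.21, adjusted p = 8.91e-04), Psmb3 (-0.71, SE 0.18, adjusted p = 0.00232) and Psmd13 (-0.61, SE 0.19, adjusted p = 0.0113) fell, and Psmg4 rose from 55.7, 55.2, 59.3 and 58.4 in IL10R_P19 (change 0.75, SE 0.16, adjusted p = 6.13e-04). This comparison shares the IL10R_abx libraries with the one against IL10R. The median was -0.34 in the core, -0.15 in the 19S cap and -0.12 in the activator class, beside 0.04 over all tested genes. Without IL10R_P19_100, 1 member was called higher and 3 lower, against 22.3% and 19.2% of all genes. Without IL10R_abx_497 it was 1 higher and 4 lower, against 25% and 22.1%. With scaling to the sum it was 1 higher and 12 lower, against 18.9% and 30.1%. A fit of the 2 groups alone called 1 higher and 4 lower, and its share of all genes is not given here. The 19S and activator medians were -0.072 and -0.060 without IL10R_P19_100, -0.095 and -0.078 without IL10R_abx_497, and the activator median was -0.071 without IL10R_abx_161 and -0.20 without IL10R_P19_106 or IL10R_abx_495.

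**Figure D4:**
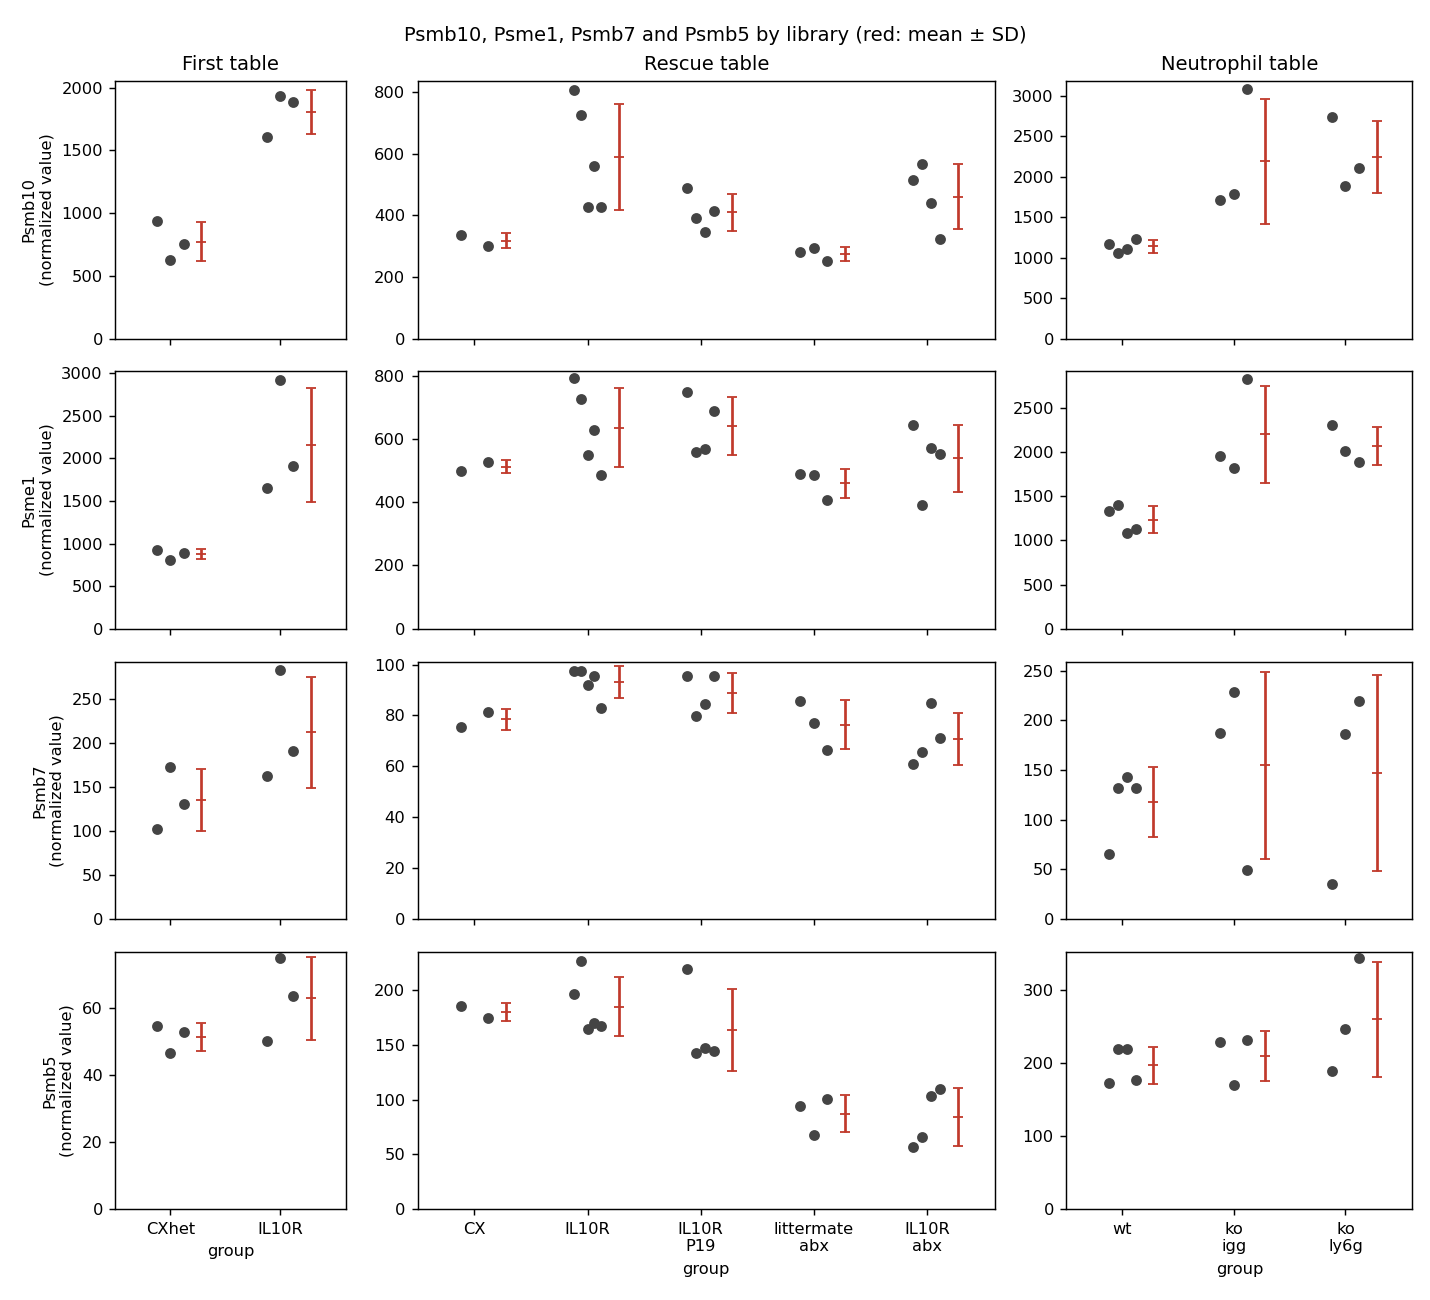
Normalized values (y axis, from 0) of Psmb10, Psme1, Psmb7 and Psmb5 in each library (points) by group (x axis) of the 3 tables, with mean ± SD in red. Psmb10 and Psme1 are higher in the deficient groups of the first and neutrophil tables. In the rescue table Psmb5 is low in both antibiotic groups (56.6 to 109.5 against 143 to 226 in the untreated libraries of that table). Psmb7 is split within each group of the neutrophil table.

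Under antibiotics the deficient and littermate mice differed in no called member. In IL10R_abx against littermate_abx the count was 0 by limma, edgeR and DESeq2 (9, 7 and 6 at an unadjusted p under 0.05), though DESeq2 gave no adjusted p for 25 of 43 members, with 0.0151% of all tested genes called higher and 0.0151% lower. Psmb10, at 516, 566, 441 and 323 against 282, 294 and 251, was higher in every deficient library (change 0.71, SE 0.22, limma adjusted p = 0.193), and so was Psme2b, at 642, 549, 715.5 and 559 against 418, 387 and 396 (change 0.61, SE 0.21, adjusted p = 0.202). Psmb5 was level (change -0.09, SE 0.22). Without IL10R_abx_497, 5 members were called higher, against 3.71% of all genes.

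The difference between the 2 deficiency effects of the rescue table, with antibiotics and without, was tested as 1 contrast added after seeing the data. No member was called (limma, 3 of 38 at an unadjusted p under 0.05, all lower), against 0.106% of all tested genes called higher and 0% lower. edgeR and DESeq2 were not run on it. The members' changes in this contrast ran from -0.82 for Psmd3 to 0.45 in the core, with a median of -0.10.

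The ratio of Psmb10 to Psmb7 compares the inducible trypsin-like subunit with the one it replaces, within each library and so free of scaling. On the log2 scale it was 3.19, 1.87 and 2.52 in CXhet and 3.30, 2.77 and 3.31 in IL10R of the first table, where CXhet 1 lay within the deficient range. In the rescue table the ratio was 2.15 and 1.88 in CX, 3.05, 2.90, 2.22, 2.55 and 2.36 in IL10R, 2.36, 2.29, 2.04 and 2.12 in IL10R_P19, 1.72, 1.93 and 1.92 in littermate_abx, and 3.08, 3.10, 2.38 and 2.18 in IL10R_abx. All libraries of IL10R lay above those of CX, and all of IL10R_abx above those of littermate_abx, 5 against 2 without antibiotics and 4 against 3 with them. None of the 11 comparisons passed a two-sided exact permutation test over libraries after adjustment (smallest adjusted p = 0.314).

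For IL10R against CX the mean difference of the ratio was 0.60 (exact permutation p = 0.0952, n = 5 and 2), the smallest p this design allows, so that 0.05 could not be reached. For IL10R_abx against littermate_abx it was 0.83 (exact permutation p = 0.0571, n = 4 and 3), again the smallest possible. For IL10R against CXhet of the first table it was 0.60 (exact permutation p = 0.2, n = 3 each, where no p below 0.1 can be reached), and it was 0.27 without CXhet 2 and 0.93 without CXhet 1. For IL10R_P19 against IL10R it was -0.42 (exact permutation p = 0.0635, n = 4 and 5). In the neutrophil table the ratio was 4.15 in wt 1, 5.98 in ko_igg 18 and 6.28 in ko_ly6g 5, and 2.96 to 3.34 in the other 7 libraries of all groups, so the means there rest on these 3 libraries.

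**Figure D5:**
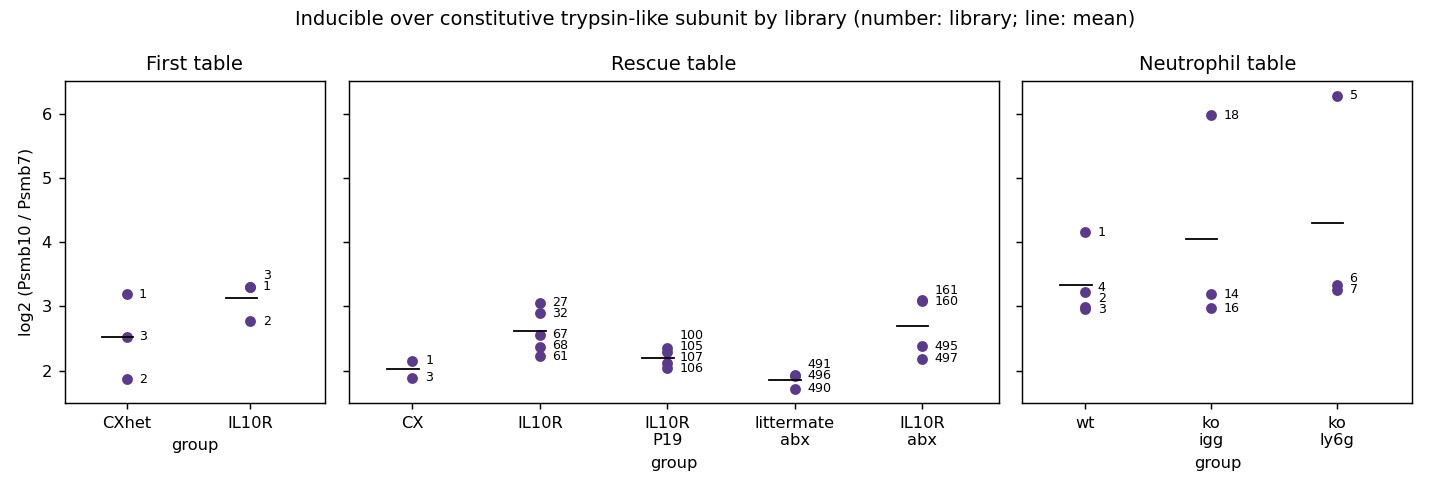
Log2 ratio of Psmb10 to Psmb7 (y axis) in each library (points, with the library number) by group (x axis) of the 3 tables, with the group mean as a line. In the rescue table the IL10R libraries lie above the CX libraries and the IL10R_abx libraries above those of littermate_abx, and in the neutrophil table wt 1, ko_igg 18 and ko_ly6g 5 lie at 4.15 to 6.28, above the rest of their groups.

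Within groups, members of a class varied together to different degrees. The median correlation between residuals of gene pairs, after removal of group means, was 0.67 for the 66 pairs of tested core genes other than Psmb10 in the first table (6 libraries), 0.34 for 78 pairs in the rescue table (18 libraries) and 0.52 for 66 pairs in the neutrophil table (10 libraries). For the cap genes it was 0.15, 0.27 and 0.13, and for all pairs of tested genes 0.00 in each table. For the 3 tested genes Psmb10, Psme1 and Psme2b it was 0.67 (first table), 0.77 (rescue) and -0.51 (neutrophil), and among the receptor-deficient chimera libraries Psme2b was lowest in the 2 with the highest Psmb10. These are descriptions, since the pairs share libraries, depth and the libraries that stand apart.

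Some genes that work with the proteasome were called higher in the deficiency comparisons, in which 4.57% (first table), 3.87% (rescue) and 5.73% (neutrophil) of all tested genes were. Of 20 tested partners (receptors, assembly and shuttle factors) 2 were called higher in IL10R against CXhet: Pomp, the maturation factor of new core particles, by 1.15 (SE 0.24, limma adjusted p = 0.0216), and Nub1, which brings NEDD8-tagged proteins to the proteasome, by 0.77 (SE 0.16, adjusted p = 0.0224). Of 21 partners in IL10R against CX 3 were called higher, the shuttle factors Rad23b (0.81, SE 0.18) and Ubqln1 (0.57, SE 0.18) and again Nub1 (0.62, SE 0.17). In ko_igg against wt 2 of 19 were, Rad23b (0.56, SE 0.15) and the cap-binding stress protein Zfand2a (0.82, SE 0.22). Of the ubiquitin and unfolding genes, 0 of 22, 0 of 21 and 1 of 19 were called in the same comparisons, the last being Nploc4, a cofactor of the unfoldase p97 (0.64, SE 0.16).

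With antibiotics partners were called in both directions. In IL10R_abx against IL10R 6 of 21 partners were called higher and 5 lower, shares near those of all tested genes (30.6% and 27.3%). Zfand5 and Zfand2a, which bind the proteasome under stress, rose by 1.69 (SE 0.17, limma adjusted p = 1.31e-07) and 2.29 (SE 0.28, adjusted p = 1.47e-06), and Nfe2l2, which encodes Nrf2, rose by 1.29 (SE 0.21). Ubqln1 fell by 0.74 (SE 0.14). The polyubiquitin gene Ubb (0.97, SE 0.16) rose as well, among 3 of 21 ubiquitin and unfolding genes called higher and 3 lower. In littermate_abx against CX, Zfand5 (1.82, SE 0.24), Zfand2a (2.39, SE 0.38) and Ubb (0.67, SE 0.22) were called higher too. Of the 11 interferon gamma context genes, such as Tap1, 10 were called higher in IL10R against CXhet, 2 in IL10R against CX, 8 in ko_igg against wt and 2 in IL10R_abx against IL10R.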

How the data were processed

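Polyadenylated RNA of sorted macrophages was captured with oligo(dT), amplified by in vitro transcription and sequenced, per the labels' protocols. The submitters' processing notes name bcl2fastq, HISAT 0.1.6, HOMER and the build mm9, with no roles. Which annotation was used, whether strand was used and how multi-mapping reads were handled is not given in the sources used here. The deposited values are signal values: the reads of a gene over a library-wide factor, as judged from the values, which were whole multiples of 1 read within 0.01 read (100%) in 32 of 34 libraries. All columns were used (0 left out), and 15399 and 15605 rows without a gene name were dropped from the first and rescue tables. Sequences are from GRCm38.p6, a later build than mm9, so no other coordinates are given.

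Tests used log2 of the deposited value plus a pseudocount, 1.31, 0.997 and 0.982 for the first, rescue and neutrophil table. Genes at or below the 0.25 quantile of the mean were removed (53.2, 40.4 and 68.0). Each table was fitted once with all its groups by limma, with trend and robust variances (limma 3.58.1, R 4.3.3), with Benjamini-Hochberg adjustment over all tested genes and a call at an adjusted p under 0.05. Every adjusted p of a gene in the text is from limma unless edgeR 4.0.16 or DESeq2 1.42.0, run on recovered reads, is named. The shares of all tested genes called are from limma too. Counts at an unadjusted p are given without a share of all genes. Ratios were tested with SciPy's exact permutation test, adjusted over 11 comparisons. The scripts were tested on simulated data.

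Groups follow the sample titles. The members, lists and tests were chosen with earlier results of these data known. Named genes are the catalytic subunits, Psmd1, Psmd2, Psmd4, Psmd14, the activators and chaperones, up to 6 called members with the smallest adjusted p per comparison, and up to 4 called genes per list, of which some are not reported here. Psmd11, Psma4, Psma6 and Psmg4, and the genes named for a split or an extreme value, were chosen after their values were seen. Replicate libraries differed by more than counting noise in every pair compared (smallest chi-square per degree of freedom 3.58).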

Additional observations from a re-analysis of the deposited data

Results flagged for a closer look

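In 6 of 93 sets of 4 or 5 libraries, 1 library lay far from the others by Dixon's criterion, and chance gives about 1 in 20. The core share of wt 1 in the neutrophil table was 0.175% of listed values against 0.248% to 0.254% in the other wt libraries. The same library was low in Psmb7, at 65.5 against 132 to 143, and in Psmd14, at 122 against 258 to 269. In the rescue table the library IL10R_P19_100 was high in Psmb5, at 219 against 143 to 147, in Psme3, at 99.1 against 73.6 to 76.2, and in Psmg2, at 57.4 against 33.2 to 35.1. Reads in wt 1 came to 1028567, the fewest of the 8 libraries of that table where reads could be recovered.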

How the results depend on the processing

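Counts of called members depended on scaling and on single libraries. With libraries scaled to the sum of listed genes, the count rose to 31 for IL10R_abx against IL10R (medians -0.66 core, -0.44 19S, -0.44 activators). All 31 were lower, with 36.6% of all genes lower and 23% higher. The count rose to 8, all lower, for littermate_abx against CX (19S median -0.31), with 21.8% of all genes lower and 11.7% higher. For IL10R_abx against IL10R_P19 it rose to 12 lower and 1 higher (19S -0.33, activators -0.30), with 30.1% of all genes lower and 18.9% higher. In fits of the 2 groups alone the count was 5 for IL10R_abx against IL10R_P19, 2 for ko_igg against wt and 0 for ko_ly6g against wt. On recovered reads edgeR gave 0 for ko_igg against wt and 0 for ko_ly6g against wt, where DESeq2 gave 4 for the latter. For the fits of 2 groups and for these tools no share of all genes is given here. TMM scaling gave 1 for ko_ly6g against wt, with 2.56% of all genes called higher. Without wt 1, ko_igg 18 and ko_ly6g 5 together, an alternative chosen after seeing the data, the counts were 20 and 17, with 16.7% and 10.6% of all genes called higher.

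Leaving out 1 library at a time gave counts of 0 to 3 for IL10R against CXhet (2.02% to 4.67% of all genes called higher). For IL10R against CX they were 0 to 3 (0.0605% to 4.6% higher), and for IL10R_abx against littermate_abx 0 to 5 (0.0151% to 3.71% higher). Counts in both directions together were 12 to 18 for IL10R_abx against IL10R. There 29% to 30.6% of all genes were called higher and 25.2% to 27.6% lower. For IL10R_abx against IL10R_P19 the counts were 4 to 8, with 22.3% to 25.7% of all genes higher and 19.2% to 23% lower. For littermate_abx against CX they were 1 to 6, all lower (11.6% to 16.6% of all genes lower). In the chimeras they were 0 to 13 for ko_igg against wt (1.9% to 9.34% higher) and 0 to 3 for ko_ly6g against wt (1.08% to 4.84% higher). Medians ranged from 0.32 to 0.68 (core), 0.22 to 0.44 (19S) and 0.42 to 0.54 (activators) for IL10R against CXhet, from 0.0093 to 0.32 (activators) for IL10R against CX, from -0.32 to -0.14 (core), -0.19 to -0.075 (19S) and -0.31 to -0.22 (activators) for IL10R_P19 against IL10R, from 0.0067 to 0.17 (core), 0.039 to 0.20 (19S) and -0.12 to 0.092 (activators) for IL10R_P19 against CX, and from 0.34 to 0.52 (activators) for ko_ly6g against wt. The log2 Psmb10 to Psmb7 difference ranged from 0.27 to 0.93 for IL10R against CXhet and from -0.52 to -0.31 for IL10R_P19 against IL10R, passing its unadjusted threshold without IL10R 61. It changed sign for IL10R_abx against IL10R (-0.070 to 0.24), ko_igg against wt (-0.25 to 1.25), ko_ly6g against ko_igg (-0.75 to 1.22) and ko_ly6g against wt (-0.033 to 1.48). The cause of these shifts was not tested. With a replicate block in IL10R against CXhet, 4 members were called, and no share of all genes is given for that fit. The replicate numbers were not taken as pairs in the main fit. Correlations of deviations were -0.058, 0.151 and 0.354 for libraries of the same number. For different numbers they ran from -0.298 to 0.149, so whether the libraries are paired was not settled. Depth went down to 747046 reads and groups to 2 libraries, which limits the calls.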
